A study of Mus musculus with 6 samples.

Results

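Integrin genes of blood cells were examined in bulk RNA libraries of mouse bone marrow LSK cells: Itga2b, Itga4, Itga5, Itga6, Itgal, Itgam, Itgb1, Itgb2, Itgb3 and Itgb7. These 10 genes were taken by name from the 54532 genes of the deposited tables, all 10 were found, and all 10 passed the filter on low counts. LSK cells lack the surface markers of mature lineages and carry Sca-1 and c-Kit, a gate that holds blood stem cells and early progenitors. The study asked what a premature stop codon in Phf6 (R274X) does to blood stem cells. The control group was 3 libraries labelled Phf6fl-R274X/Y, males with the conditional allele of the X-linked gene Phf6 and no Cre, called floxed controls here. The other group was 3 libraries labelled Vav1-Cre; Phf6fl-R274X/Y, called R274X libraries. Both groups thus carry the conditional allele, and Cre is present only in the R274X group, so an effect of Cre itself cannot be told apart from that of the allele. Vav1-Cre acts in cells of the blood system in general, so mature blood cells carry the recombined allele too. Age, treatment and strain of the mice are not given in the labels, nor whether a library came from 1 animal or a pool. The p-values below therefore rest on the spread among 3 libraries per group, some or all of which may be technical.

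An integrin is a surface receptor made of an alpha and a beta chain, and the pair decides what the cell can hold on to. In the marrow, stem cells use the fibronectin and VCAM-1 receptors (alpha4 or alpha5 with beta1) and laminin receptors (alpha6 with beta1) to stay in their niche. The beta2 integrins LFA-1 and Mac-1 serve white cell adhesion and phagocytosis, and alphaIIb with beta3 is the fibrinogen receptor of platelets and megakaryocytes. Integrins rest in a bent state until talin and kindlin bind the tail of the beta chain, a step driven by the small GTPase Rap1.

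Library totals ran from 15406314 to 18106065 counts. Phf6 measured 29.6 to 33.5 CPM (counts relative to library size, scaled by TMM) in the controls, against 8.29 to 10.2 CPM in the R274X libraries. Both gate markers were present in every library, with Kit lower (84.5 to 113.1 against 148.4 to 172.7 CPM) and Ly6a, which encodes Sca-1, higher (229 to 256.2 against 135.9 to 145.5 CPM) in the R274X group. RNA of cells that the gate should leave out was present in all libraries. The counts of markers that rose or fell are to be read beside the share of all tested genes. The test described below called 10.1% of these as higher and 7.89% as lower in the R274X libraries. The summed level of 16 neutrophil markers ran from 20282 to 33798 CPM in the controls and from 15254 to 39774 CPM in the R274X libraries, and 0 of 16 passed the test. That of 16 macrophage and monocyte markers ran from 284.1 to 569.7 and from 1221 to 2567 CPM, and 6 of 16 rose. The sum of 15 B cell markers ran from 411.9 to 923.7 and from 1657 to 3334 CPM with 7 of 14 tested rising, and that of 10 plasma cell markers from 256.3 to 850.3 and from 2043 to 4725 CPM with 7 of 10 rising. The sums of dendritic cell markers (279.5 to 346.7 against 490.9 to 654.6 CPM, 5 of 10 rose) and erythroid markers (1045 to 1378 against 2087 to 3401 CPM, 4 of 13 rose) were higher in every R274X library too. The pooled sum of mast cell, basophil and eosinophil markers ran from 161.8 to 265 and from 273.6 to 328.3 CPM. Of its 11 tested markers 1 rose and 1 fell, or 18.2%, near the share of all tested genes. Within it, the eosinophil granule gene Prg2 was higher (60.1 to 127.6 against 165.4 to 187.6 CPM). The mast cell protease gene Cpa3 leaned lower (24.8 to 42.7 against 14.2 to 29.8 CPM). The sum of 12 endothelial and stromal markers was lower, 135.4 to 146.3 against 100.2 to 110.6 CPM, with 1 of 8 tested rising and 2 falling. Pecam1 held the largest part of that sum, 73.1 to 84.5 against 67.8 to 74.7 CPM. Pdgfrb (32.5 to 35.6 against 18.8 to 26.8 CPM) and Emcn (19.0 to 20.8 against 6.15 to 7.18 CPM) came next. Cdh5, at a low level, was higher in the R274X libraries (0.322 to 0.635 against 0.736 to 2.05 CPM). The part of endothelial or stromal cells in this sum was not tested. In bulk RNA, fewer cells of a type and less RNA per cell cannot be told apart.

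Of the 10 integrin genes, 1 passed the test, Itga6, and it was lower in the R274X libraries. The test was the quasi-likelihood test of edgeR over all 14608 tested genes, with an adjusted p of 0.05 as the threshold, and it called 17.9% of all genes, 10.1% as higher and 7.89% as lower. The count of 1 in 10 does not stand above that background. The median log2 fold change of the 10 genes (R274X minus control) was -0.08, against -0.02 for all tested genes. For 2 members, Itga6 and Itga2b, every R274X value lay below every control value, whereas 37.2% of all tested genes had no overlap and 18.3% had none with the R274X libraries lower.

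**Figure D1:**
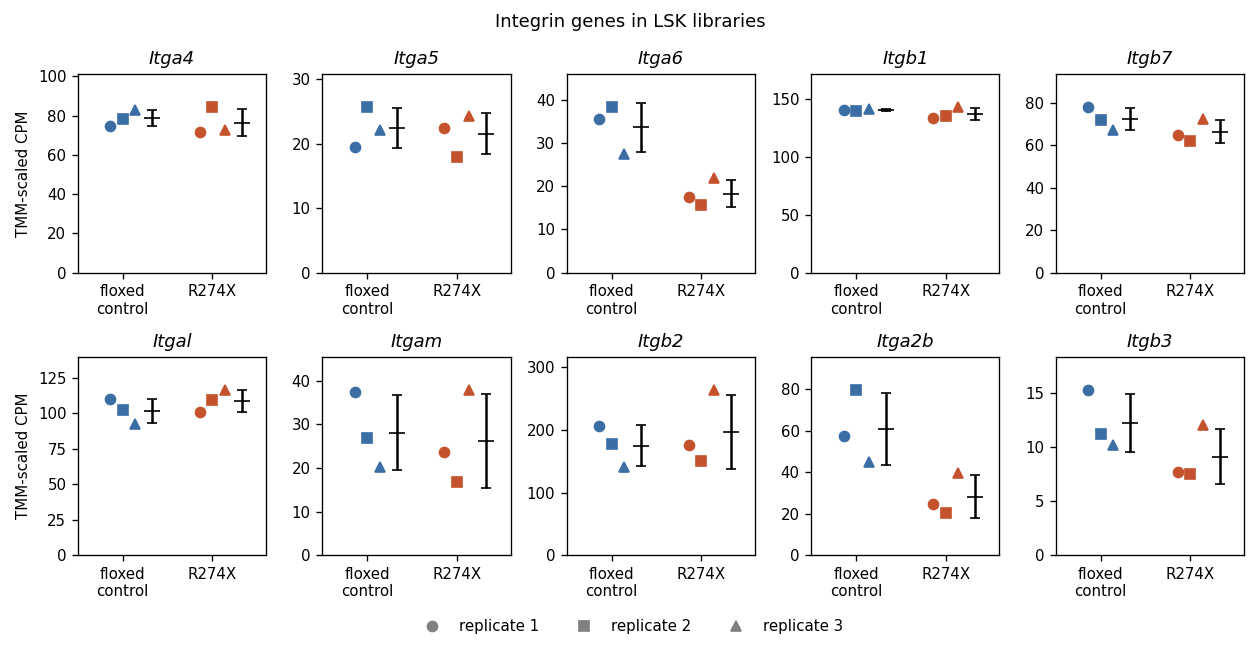
TMM-scaled CPM of the 10 integrin genes in each of the 6 libraries, with a linear axis from 0 for each gene. Points are libraries, shapes are replicate numbers (which pair nothing), and the bar beside each group is its mean with the SD (n = 3). Itga6 and Itga2b are lower in all R274X libraries, while Itgb1 sits between 133.4 and 142.8 CPM in all 6.

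The upstream sequences of a gene that held level in all libraries and of one that varied within both groups are shown first, because these genes mark the ends of the range described below. RefSeq (GRCm38.p6) gave a start for 6 of the 10 genes. The 250 bases before the start are printed 5′ to 3′ on the gene's strand, with capitals for GAGGAA or its reverse complement TTCCTC, the core bound by PU.1 and other ETS factors of blood cells. Itgb1, the beta chain found on nearly all cells, has the window chr8:128685404-128685653 on the plus strand, and Itgam, a chain of mature myeloid cells, has chr7:128062390-128062639 on the plus strand.
Itgb1: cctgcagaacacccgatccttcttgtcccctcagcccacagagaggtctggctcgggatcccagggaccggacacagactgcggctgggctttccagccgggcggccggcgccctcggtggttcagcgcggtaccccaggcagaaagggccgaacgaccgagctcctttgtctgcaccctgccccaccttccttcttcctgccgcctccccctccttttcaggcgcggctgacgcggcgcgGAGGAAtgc
Itgam: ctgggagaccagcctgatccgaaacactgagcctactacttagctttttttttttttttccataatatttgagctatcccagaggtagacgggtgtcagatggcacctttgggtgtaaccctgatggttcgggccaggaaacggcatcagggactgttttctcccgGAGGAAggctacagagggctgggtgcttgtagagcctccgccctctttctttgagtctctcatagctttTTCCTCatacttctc
The Itgb1 window had a GC content of 68.0% and 21 CpG dinucleotides, and the Itgam window 49.6% and 6, against medians of 52.4% and 6 over 32851 promoters. GAGGAA occurred on either strand in 23.3% of those promoters of the same length and in 4 of the 6 integrin windows (Itga2b, Itga5, Itgam and Itgb1). The start that RefSeq gives for Itga2b lies inside the GENCODE gene, and 180 of the 250 bases of its window are annotated exon there, so that window is not purely upstream. The GATA letters AGATAA, searched on both strands, occurred in 0 of the 6 and in 9.99% of all, and the RUNX letters TGTGGT in Itga4 alone of the 6 and in 14.0% of all. Such matches describe letters in a window and no binding.

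Itgb1 (ENSMUSG00000025809, chromosome 8, 128685654 to 128733200, GRCm38) encodes beta1, the partner of alpha4, alpha5 and alpha6 on stem cells. It measured 140.2, 139.3 and 141.4 CPM in the controls, against 133.4, 135.5 and 142.8 CPM in the R274X libraries. The groups overlapped, and the level was close to the same in all 6 libraries. On the log2 scale the difference was -0.03 (SE 0.0677, 95% interval -0.18 to 0.11, edgeR adjusted p = 0.779), which as a ratio of R274X to control is 0.883 to 1.08.

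The chains of the fibronectin and VCAM-1 receptors did not pass the test either. Itga4 (ENSMUSG00000027009, chromosome 2, 79255426 to 79333123), the alpha chain of the VCAM-1 receptor that holds progenitors in the marrow, measured 74.8, 78.4 and 82.7 CPM in the controls, against 71.8, 84.1 and 72.8 CPM in the R274X libraries. Its log2 fold change was -0.04 (95% interval -0.22 to 0.13, edgeR adjusted p = 0.747). Itga5 (ENSMUSG00000000555, chromosome 15, 103344286 to 103366763), the alpha chain of the fibronectin receptor, measured 19.5, 25.6 and 22.1 CPM against 22.4, 18.0 and 24.3 CPM. For both genes the highest and the lowest R274X library lay on either side of the control median. The interval of Itga5 was wider, -0.35 to 0.24 around a log2 fold change of -0.06 (edgeR adjusted p = 0.812), and its sign turned without control 2 (0.03) or without R274X 2 (0.06).

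Itgb7 (ENSMUSG00000001281, chromosome 15, 102215995 to 102231944) encodes beta7, the alternative partner of alpha4 that binds MAdCAM-1 and serves homing to the gut and of progenitors to the marrow. Its values were 77.9, 71.9 and 67.4 CPM in the controls, against 65.1, 62.1 and 72.3 CPM in the R274X libraries. The R274X values leaned low, but the third of them lay above 2 of the 3 controls. The log2 fold change was -0.12 (SE 0.0855, 95% interval -0.31 to 0.06, edgeR adjusted p = 0.351).

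Itga6 fell 1.84-fold in the R274X libraries. The gene (ENSMUSG00000027111, protein-coding, chromosome 2, 71745616 to 71858416) encodes alpha6, or CD49f, a chain of laminin receptors used as a marker of long-term stem cells and also present on platelets. It measured 35.5, 38.2 and 27.3 CPM in the controls, from 670, 713 and 508 counts, and 17.5, 15.6 and 21.9 CPM in the R274X libraries, from 270, 236 and 327 counts. All R274X values lay below the lowest control. The means were 33.7 ± 5.65 and 18.3 ± 3.22 CPM (SD, n = 3 each), a log2 difference of -0.88 (SE 0.153, 95% interval -1.22 to -0.54, edgeR adjusted p = 0.00361). The deposited FPKM values, which divide by gene length and library size, were 3.70 ± 0.602 and 2.02 ± 0.359.

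The call for Itga6 held whichever library was left out, with log2 fold changes from -1.02 to -0.78. Of 17 alternatives, the call was lost in 1, limma on log2(FPKM + 1) without a filter on low values (adjusted p = 0.0766). Other measures differed between the groups in the same libraries. Of 10 stem and progenitor markers, 9 fell and 0 rose, and their summed level was 1699 to 1796 CPM in the controls, against 1073 to 1296 CPM in the R274X libraries. The sum of megakaryocyte and platelet markers was lower too, 244.7 to 271.1 against 172.5 to 225.8 CPM, as was the endothelial and stromal sum given above. On the log2 scale, Pearson's r of Itga6 with these 3 sums over the 6 libraries was 0.938, 0.954 and 0.946. It was -0.991 with the B cell sum, -0.993 with the plasma cell sum and -0.974 with the dendritic cell sum. With the macrophage and erythroid sums it was -0.960 and -0.826, and with the pooled mast cell, basophil and eosinophil sum -0.461. The B cell, plasma cell, macrophage, dendritic cell and erythroid sums given above were higher in every R274X library than in any control. So was the pooled sum of mast cell, basophil and eosinophil markers. The part of these differences in the lower Itga6 level was not tested.

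Itga2b had the largest log2 fold change of the 10 genes, but it did not pass the test. The gene (ENSMUSG00000034664, chromosome 11, 102453297 to 102470122) encodes alphaIIb, or CD41, which marks the megakaryocyte lineage and the early stem cells with platelet priming. It measured 57.5, 79.7 and 45.2 CPM in the controls, against 24.6, 20.2 and 39.9 CPM in the R274X libraries. The groups did not overlap, although the highest R274X library and the lowest control were close. Its log2 difference was -1.11 (SE 0.366, 95% interval -2.09 to -0.12, edgeR adjusted p = 0.122). The interval, which is not adjusted for the number of genes, lay below 0. With other tools it passed: the adjusted p was 0.0304 in DESeq2, which called 16.8% of genes, 0.0245 in limma-voom, which called 15.8%, and 0.0271 in edgeR without the robust option, which called 16.2%. It also passed without R274X 3 (-1.44, edgeR adjusted p = 0.0495, with 21.9% of genes called), and the left-out values of the log2 fold change ran from -1.44 to -0.88.

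Itgb3 (ENSMUSG00000020689, chromosome 11, 104608000 to 104670476) encodes beta3, the partner of alphaIIb in platelets and of alphaV in other cells. It was the lowest of the 10 genes, with 15.3, 11.3 and 10.2 CPM in the controls, against 7.76, 7.54 and 12.1 CPM in the R274X libraries, from 114 to 289 counts. The groups overlapped because R274X 3 lay above 2 of the controls. The log2 fold change was -0.42 (95% interval -0.90 to 0.05, edgeR adjusted p = 0.204). Without R274X 3 it was -0.68 and passed (edgeR adjusted p = 0.0271). Beside both genes, 3 of 14 tested megakaryocyte and platelet markers fell (Nbeal2, Gp9 and Nrgn) and 1 rose, Clec1b, which macrophages and dendritic cells can also express. Their summed level was 244.7 to 271.1 CPM in the controls, against 172.5 to 225.8 CPM in the R274X libraries, and Gp1bb was at 0 in all 6. The part of these markers in the Itga2b and Itgb3 values was not tested.

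The beta2 integrin genes of white cells did not pass, and each had overlapping groups. The intervals of Itgb2 and Itgam were wider than that of Itgal. Itgb2 (ENSMUSG00000000290, chromosome 10, 77530252 to 77565708), the beta chain shared by LFA-1 and Mac-1, measured 206.1, 178.1 and 140.8 CPM in the controls, against 175.7, 151.2 and 263.9 CPM in the R274X libraries. R274X 3 was the highest and control 3 the lowest of the 6. The log2 fold change was 0.17 (SE 0.275, 95% interval -0.56 to 0.90, edgeR adjusted p = 0.726), and it turned to -0.10 without R274X 3.

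Itgam (ENSMUSG00000030786, chromosome 7, 128062640 to 128118491) encodes CD11b, the alpha chain of Mac-1, and antibodies to it are widely used to remove myeloid cells from the LSK gate. The labels do not name the antibodies of this gate. Itgam measured 37.3, 26.9 and 20.1 CPM in the controls, against 23.7, 16.7 and 37.9 CPM in the R274X libraries, so both groups covered nearly the same range. The log2 fold change was -0.11 (SE 0.407, 95% interval -1.20 to 0.98, edgeR adjusted p = 0.884), and it was 0.14 without control 1 and 0.13 without R274X 2. As a ratio of R274X to control that interval is 0.436 to 1.97, so a sizeable change in either direction was not detectable here. In GENCODE release M21, 68.7% of the exon length of Itgam is shared with Gm49368, a gene model on the same strand, but Gm49368 held only 12 counts over all 6 libraries. The labels do not say how reads in the shared part were counted.

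The summed level of neutrophil markers had the same order over the libraries as Itgam. From lowest to highest, both the Itgam level and the summed level of 16 neutrophil markers ran R274X 2, control 3, R274X 1, control 2, control 1 and R274X 3. The marker sum was 15254 CPM in the first and 39774 CPM in the last of these. Itgb2 had that order too, except that control 3 and R274X 2 were exchanged. Not every marker in the sum had its order. The highest level of Prtn3, Mpo and Elane was in a control, and that of the other neutrophil markers in an R274X library. Prtn3 measured 626.7 to 1063 CPM in the controls, against 267 to 583.8 CPM in the R274X libraries. The part of neutrophil RNA in the Itgam and Itgb2 levels was not tested.

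Itgal (ENSMUSG00000030830, chromosome 7, 127296260 to 127335138), the alpha chain of LFA-1, did not share that spread. It measured 110.0, 102.4 and 92.6 CPM in the controls, against 100.9, 109.5 and 116.5 CPM in the R274X libraries. The groups overlapped, and the log2 fold change was 0.10 (SE 0.0839, 95% interval -0.08 to 0.28, edgeR adjusted p = 0.448).

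**Figure D2:**
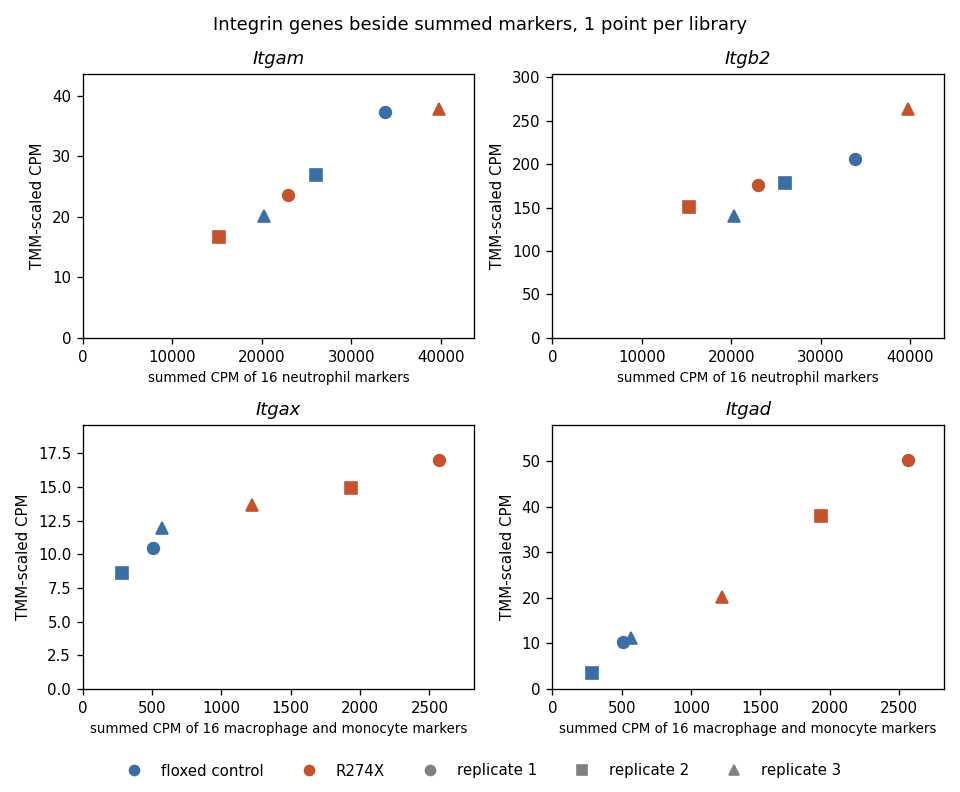
TMM-scaled CPM of Itgam, Itgb2, Itgax and Itgad (vertical axes) against the summed CPM of 16 neutrophil or 16 macrophage and monocyte markers (horizontal axes), 1 point per library. Libraries of both groups mix along the neutrophil axis, from 15254 to 39774 CPM, while all R274X libraries lie above all controls on the macrophage axis.

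Per unit of gene length, Itgb2 was the most abundant member and Itgb3 the least. The mean FPKM over all 6 libraries was 60.6 for Itgb2, 33.8 for Itgb1, 24.9 for Itgb7, 15.9 for Itgal, 8.10 for Itga2b, 5.51 for Itga4, 5.36 for Itgam, 4.43 for Itga5, 2.86 for Itga6 and 1.80 for Itgb3. The first 3, all beta chains, and Itgal came in this order in every library. Neighbours from Itga4 to Itga5 overlapped in both groups and cannot be ordered. Itgal and Itga2b overlapped in the controls but not in the R274X libraries, where Itga2b overlapped Itga4 instead. Itga5 and Itga6 overlapped in the controls and not in the R274X libraries, and Itga6 and Itgb3 only in the R274X libraries. The exon length of Itga4 is 13978 bases and that of Itgb7 2770 bases, so the order by CPM differs.

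**Figure D3:**
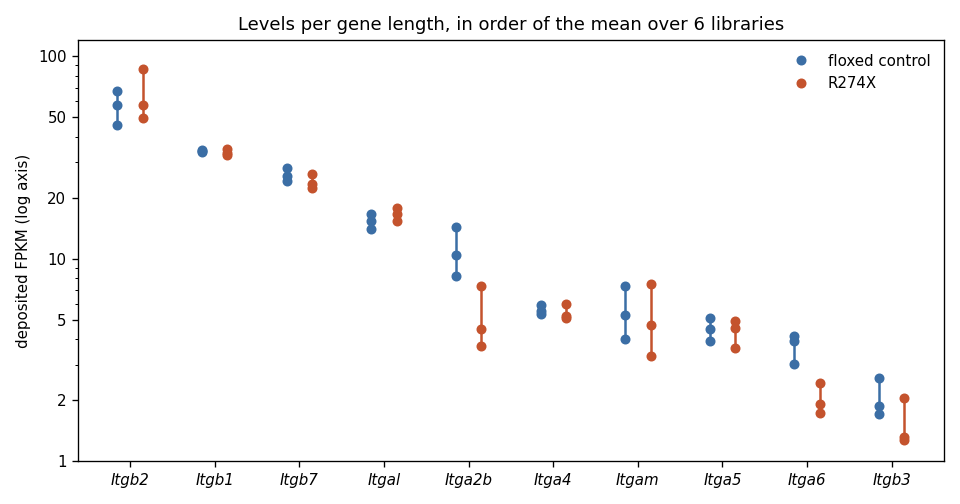
Deposited FPKM of the 10 integrin genes on a log axis, ordered by the mean over 6 libraries. Points are libraries and the line spans each group of 3. Itga2b is at 8.25 to 14.4 FPKM in the controls and at 3.70 to 7.30 FPKM in the R274X libraries.

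Ratios of chains within a library do not depend on how libraries are scaled. For 9 ratios of deposited FPKM the group difference was tested with an exact two-sided permutation test, for which 0.1 is the smallest p with 3 against 3 libraries, so none could pass 0.05. Itga6 relative to its partner Itgb1 was 0.114, 0.124 and 0.0874 in the controls, against 0.0592, 0.0521 and 0.0693 in the R274X libraries. The groups lay apart, with a difference of -0.85 on the log2 scale (exact permutation p = 0.1, adjusted p = 0.45 over the 9 ratios). Itga2b relative to Itgb3 was 4.07, 7.66 and 4.80 in the controls, against 3.43, 2.90 and 3.56 in the R274X libraries. These groups lay apart too, with a log2 difference of -0.69 (exact permutation p = 0.1, adjusted p = 0.45).

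The other 7 ratios overlapped between the groups. Itgb7 relative to Itgb1, the beta chains that compete for alpha4, was 0.818, 0.761 and 0.702 in the controls, against 0.719, 0.675 and 0.746 in the R274X libraries, a log2 difference of -0.09 (exact permutation p = 0.4). Itga4 and Itga5 relative to Itgb1 differed by -0.01 and -0.03 on the log2 scale, and Itga4 relative to Itga5 by 0.01. Itgam relative to Itgal, the alternative alpha chains of beta2, was -1.17, -1.54 and -1.82 on the log2 scale for controls and -1.70, -2.32 and -1.24 for R274X libraries (difference -0.25, exact permutation p = 0.6). Itgal and Itgam relative to Itgb2 differed by -0.05 and -0.29.

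Of the 16 other integrin genes, 10 passed the count filter, and 1 of these 10 rose, none fell. Itgax, which encodes CD11c of dendritic cells and macrophages, measured 10.4, 8.58 and 11.9 CPM in the controls, against 17.0, 14.9 and 13.6 CPM in the R274X libraries. All R274X values lay above the controls, with a log2 fold change of 0.56 (SE 0.155, edgeR adjusted p = 0.0266). The call was lost without control 1 (edgeR adjusted p = 0.0778), control 2 (0.12), R274X 1 (0.126) or R274X 2 (0.0751). Its neighbour Itgad, which encodes CD11d, a beta2 partner known from splenic and other tissue macrophages, had the largest difference of all integrin genes but did not pass: 10.2, 3.48 and 11.1 CPM against 50.3, 37.9 and 20.1 CPM. Its difference was 2.12 on the log2 scale (SE 0.606, edgeR adjusted p = 0.0922). With DESeq2, with limma-voom and without the robust option, 2 of the other integrin genes were called in place of 1.

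Itgam, Itgax and Itgad lie side by side on chromosome 7, with gaps of 11055 bases between Itgam and Itgax and 3718 bases between Itgax and Itgad, and Itgal lies 0.728 Mb away from Itgam. These neighbours did not share 1 pattern, since Itgam had overlapping groups and Itgax and Itgad did not. In the libraries, Itgax and Itgad had the same order as the summed macrophage and monocyte markers and as the summed dendritic cell markers: control 2, control 1, control 3, R274X 3, R274X 2 and R274X 1, from lowest to highest. The B cell marker sum had that order too, and the plasma cell sum differed from it only by the exchange of R274X 1 and R274X 2. The order is therefore not particular to 1 cell type. The part of RNA from any of these cell types in the Itgax and Itgad differences was not tested.

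The remaining tested integrin genes were low or level. Itgb5, a partner of alphaV, was the highest of them with 34.7, 31.6 and 42.8 CPM in the controls, against 44.6, 35.9 and 28.1 CPM in the R274X libraries (log2 fold change -0.01, 95% interval -0.44 to 0.42). Itgav, the alphaV chain, stood at 0.40 (edgeR adjusted p = 0.232) and Itga9 at -0.10 (0.784). Itga1, Itga2, Itga3, Itga10 and Itgb4 had group means of at most 2.44 CPM and did not pass. Itga7, Itga8, Itga11, Itgae, Itgb6 and Itgb8 were not tested, and Itgb8 had 0 counts in all libraries, which allows up to 0.159 to 0.201 CPM (3 counts per library, counting error only).

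**Figure D4:**
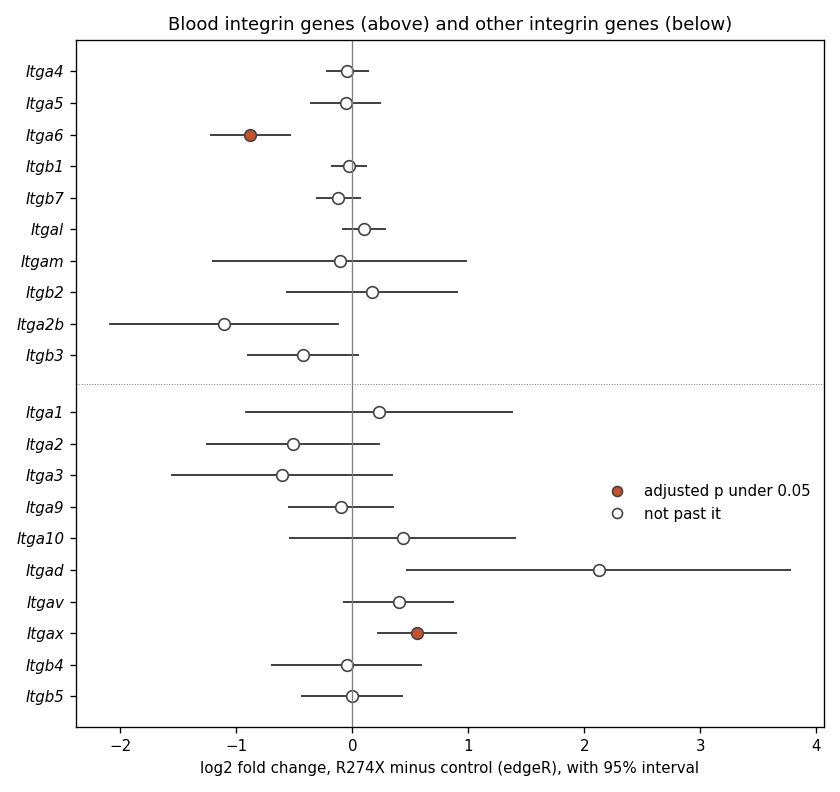
Log2 fold changes (R274X minus control, edgeR) of the 10 blood integrin genes above the dotted line and of 10 other tested integrin genes below it, with 95% intervals that are not adjusted for the number of genes. Filled points are past an adjusted p of 0.05: Itga6 at -0.88 and Itgax at 0.56.

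Genes that act with integrins were read from 5 lists with 105 entries, of which 86 were tested. Of these, 15 rose and 8 fell, or 26.7%, beside the 17.9% of all tested genes, and their median log2 fold change was -0.04. Leaving out 1 library at a time left 10 to 32 of them called, and 10 of the 23 stayed called in all 6 such fits: Rasgrp2, Skap1, Nisch, Sipa1, Fyn, Nedd9, Emilin1, Cd37, Cd82 and Slc3a2. The other 13 lost the threshold in at least 1 of them, and all 13 did so without control 2.

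Genes of integrin activation moved both ways. Of 15 tested members, 4 rose and 2 fell, or 40% (median -0.07). Rasgrp2, the exchange factor that loads Rap1 with GTP in platelets and white cells, rose 1.59-fold, from 219.2, 211.9 and 235.5 CPM to 367, 377.4 and 314.8 CPM (edgeR adjusted p = 0.000448). Its order over the libraries was that of the plasma cell marker sum. From lowest to highest this was control 2, control 1, control 3, R274X 3, R274X 1 and R274X 2. The part of plasma cell RNA in the Rasgrp2 value was not tested. The adaptor gene Skap1, of T cells above all, rose 2.47-fold from a low level, 2.26 ± 0.294 to 5.59 ± 1.48 CPM (SD, n = 3 each, edgeR adjusted p = 0.00606), in libraries where 11 of 17 T and NK cell markers rose and 1, Nkg7, fell. The sum of those markers was 250.7 to 255.3 CPM in the controls, against 211.6 to 271 CPM in the R274X libraries. The part of T cell RNA in the Skap1 value was not tested.

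The genes of talin and of the blood kindlin, the proteins that bind the beta tail, were both lower. Tln1 measured 358.3, 336.2 and 287.2 CPM in the controls, against 227.1, 222.7 and 270 CPM in the R274X libraries, a log2 fold change of -0.45 (edgeR adjusted p = 0.01). Fermt3, which encodes kindlin-3, stood at -0.30 (edgeR adjusted p = 0.0424). Both calls were lost without control 1, control 2, R274X 1 or R274X 2, with adjusted p from 0.0505 to 0.0582 for Tln1 and from 0.0846 to 0.158 for Fermt3. Rap1a rose (0.36, edgeR adjusted p = 0.013), but not without control 1, control 2 or R274X 1 (0.0615 to 0.0807), and Cyth1 rose (0.51, 0.0249) but passed only without R274X 3 among the left-out fits.

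Of 10 tested genes that restrain integrins, 2 rose and 1 fell, or 30% (median 0.00 to 2 decimals). Sipa1, which switches Rap1 off, rose 1.28-fold (controls 172.2 ± 0.766 CPM, R274X libraries 220.6 ± 14.4 CPM, SD, n = 3 each, edgeR adjusted p = 0.00573). Nisch, the gene of the alpha5-binding protein nischarin, fell by 0.43 on the log2 scale (edgeR adjusted p = 0.00553). Itgb1bp1, whose product ICAP-1 binds the beta1 tail and competes with talin, stood at 0.33 (edgeR adjusted p = 0.0377) and lost the threshold in 5 of the 6 left-out fits, all but that without R274X 3.

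In the list of signalling from bound integrins, 4 of 31 tested members rose and 2 fell (median -0.05). That is 19.4%, near the 17.9% of all tested genes. Nedd9, a docking protein of the focal adhesion kinase pathway, rose 2.42-fold, from 35.8, 29.5 and 36.0 CPM to 86.9, 97.8 and 60.6 CPM (edgeR adjusted p = 0.00696). It had the library order of the plasma cell marker sum, as Rasgrp2 did, and the part of plasma cell RNA in its value was not tested. The Src-family kinase gene Fyn rose by 0.59 on the log2 scale (52.0, 53.0 and 58.6 against 85.7, 87.4 and 72.5 CPM, edgeR adjusted p = 0.00127). Vav2, an exchange factor for Rac, stood at 0.70 (edgeR adjusted p = 0.0244), and Lyn at 0.22 (0.045). Dock2 and Vav3, which also act on Rac, fell by 0.23 and 0.27 on the log2 scale (edgeR adjusted p = 0.0407 and 0.0415). These 4 calls were lost when most of the single libraries were left out, Vav2 in 5, Dock2 in 5, Lyn in 6 and Vav3 in 6 of 6 fits.

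Among 17 tested ligand genes, 1 rose and 2 fell (median -0.16), or 17.6%, near the 17.9% of all tested genes. Emilin1, a matrix protein bound by alpha4 beta1, fell 1.59-fold, from 88.6, 99.9 and 79.2 CPM to 53.1, 51.1 and 64.1 CPM (edgeR adjusted p = 0.00191). Its library order was the reverse of that of the plasma cell marker sum, and a link between them was not tested. F11r, the junctional adhesion molecule that LFA-1 can bind, stood at -0.43 (edgeR adjusted p = 0.0176, and 0.052 to 0.0745 without control 2, R274X 1 or R274X 2). Lamc1, a laminin chain, stood at 0.70 (edgeR adjusted p = 0.0116, and 0.0612 and 0.0703 without control 2 and R274X 2). Vcam1, the ligand of alpha4 beta1, had the largest difference of this list but did not pass: 77.4, 40.2 and 100.5 CPM in the controls, against 402.1, 339.1 and 209.4 CPM in the R274X libraries (log2 fold change 2.12, edgeR adjusted p = 0.0531). Vcam1 was named here after its value was seen, and it is also expressed by marrow macrophages. For it and for the macrophage, dendritic cell and B cell marker sums, R274X 1 was highest and control 2 lowest. The part of RNA from any of these cell types in the Vcam1 value was not tested.

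Membrane partners of integrins rose in 4 and fell in 1 of 13 members, or 38.5% (median 0.04). Slc3a2, the CD98 heavy chain that binds beta1, rose 1.46-fold (175.3 ± 7.43 to 256.2 ± 27.4 CPM, SD, n = 3 each, edgeR adjusted p = 0.00143). The plasma cell marker sum given above was higher in the same libraries, and its part in the Slc3a2 value was not tested. The tetraspanin genes Cd82, Cd37 and Cd81 rose by log2 values of 0.46, 0.43 and 0.35, and Tspan32 fell by 0.33. The calls for Cd81 (edgeR adjusted p = 0.0506 without control 2) and Tspan32 (0.0613 without control 2 and 0.0651 without R274X 1) depended on single libraries. Cd37 is a tetraspanin of mature B cells as well, and the B cell marker sums above were higher in the same libraries; their part in it was not tested.

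**Figure D5:**
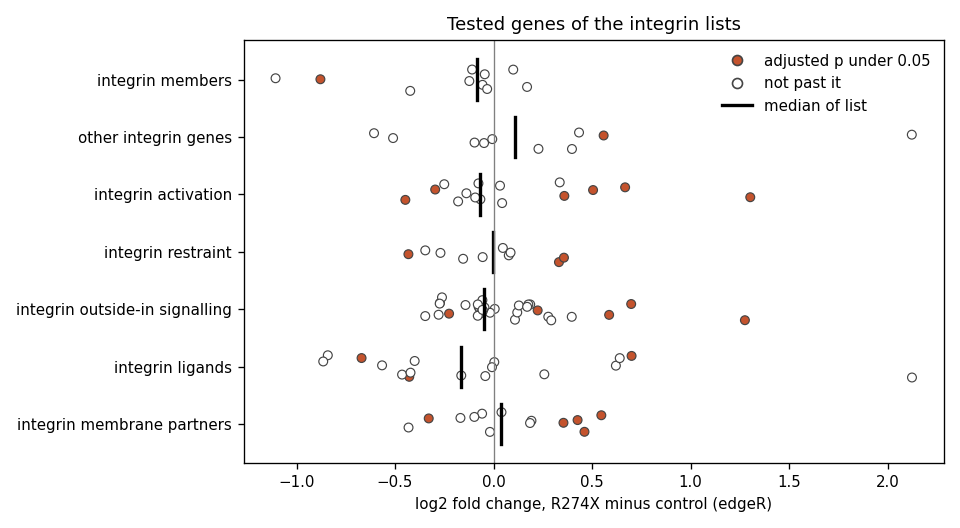
Log2 fold changes (R274X minus control, edgeR) of every tested gene in 7 integrin lists, 1 point per gene, with the median of each list as a bar. Filled points passed an adjusted p of 0.05, and list medians lay between -0.16 and 0.11.

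The genes whose levels over the 6 libraries were most like those of each member were named from 9408 other tested genes with a mean of at least 10 CPM, by Pearson's r of log2 CPM. For Itga6 this was Aqp9 (r = 0.997), an aquaporin gene, and 244 genes had an r of at least 0.95. For Itga2b it was Csf2rb (r = 0.999), the shared beta chain of cytokine receptors, with 199 such genes. Itgam was closest to Anxa1 (r = 0.993, 55 genes) and Itgb2 to Cybb (r = 0.993, 40 genes), both expressed in myeloid cells. For the other members the counts were 47 for Itgb7 (closest Mrpl44), 39 for Itgb3 (Agap1), 14 for Itgb1 (Dph5), 13 for Itga4 (Pde7a), 8 for Itga5 (Mrm3) and 5 for Itgal (Rint1). With 6 points that share their scaling and, for Itga6 and Itga2b, a group difference, such values describe these libraries only.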

How the data were processed

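RNA was measured in 6 libraries of mouse bone marrow LSK cells, 3 floxed controls and 3 with Vav1-Cre. Groups came from the genotype labels, and replicate numbers follow deposit order and pair nothing. The authors deposited whole-number read counts per Ensembl gene and FPKM values, per the file headers. The submitters' processing notes name Bowtie and the build mm8. Counting tool, annotation and strandedness: not given in the sources used here. Gene lengths implied by counts and deposited FPKM equalled the exon lengths of GENCODE M21 (GRCm38) for 94.4% to 94.6% of genes above 200 counts (tolerance 0.01%), so coordinates are those of GRCm38. The authors' FPKM use library sizes equal to median-ratio size factors. Of 54532 gene identifiers, 54409 matched a symbol, and unmatched ones held 0.0308% to 0.0475% of counts.

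The deposited counts went into edgeR 4.0.16 (quasi-likelihood F test, R 4.3.3, TMM, filterByExpr with a minimum count of 10, robust option, Benjamini-Hochberg adjustment over all 14608 tested genes). The 95% intervals are not adjusted. CPM values use the TMM-scaled library sizes. Ratios were tested with exact permutation tests (SciPy 1.17.1). Alternatives were DESeq2 1.42.0, limma 3.58.1 (voom, and log2 of FPKM plus 1 or 0.1 for genes with a mean of at least 0.5 or without a filter), RLE and upper-quartile scaling, no filter, a mean count of at least 50, no robust option, removal of immunoglobulin genes, and leaving out each library. The scripts were tested on simulated data. Members, lists and the rule for named genes (all members, tested integrin genes, and called list genes with the smallest p) were chosen with earlier results of these data known.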

Additional observations from a re-analysis of the deposited data

How the results depend on the processing

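The count of called integrin genes was 1 with edgeR and 2 with DESeq2, with limma-voom and without the robust option (Itga6 and Itga2b), and 0 with limma on unfiltered log2(FPKM + 1). Leaving out 1 library gave 1 to 3. Other integrin genes called numbered 2, 2, 2 and 0 under those 4 settings and 0 to 1 with a library left out. Called pathway genes fell from 23 to 13 with limma on log2(FPKM + 1), 13 on log2(FPKM + 0.1) and 5 without a filter, and ran from 10 to 32 with a library left out. All called genes fell from 2621 to 1581, 1548 and 611 under these 3 settings and ran from 1218 to 3295 with a library left out. The cause of these shifts was not tested.

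Among these results signs turned when a library was left out in 3 genes and 5 ratios, none of them called: the left-out log2 fold changes ran from -0.16 to 0.0599 for Itga5, from -0.48 to 0.14 for Itgam and from -0.0978 to 0.33 for Itgb2. Left-out ranges of the log2 ratio differences were -0.50 to 0.0395 for Itgam/Itgal, -0.10 to 0.046 for Itga4/Itgb1, -0.12 to 0.091 for Itga5/Itgb1, -0.22 to 0.14 for Itgal/Itgb2 and -0.19 to 0.13 for Itga4/Itga5. They were -0.99 to -0.74 for Itga6/Itgb1 and -0.88 to -0.43 for Itga2b/Itgb3. No paired analysis was possible because the labels give no replicate numbers shared between the groups. Itgb3 had the fewest counts of the 10 genes, 114 to 289 per library.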
